A study of Mus musculus with 45 samples.

Results

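STAT proteins are the transcription factors that cytokine receptors activate, and the SOCS proteins with their relative CIS are inhibitors that the same signals induce. Transcripts of 9 of these genes (Stat2, Stat3, Stat4, Stat5a, Stat5b, Stat6, Socs1, Socs3 and Cish), chosen by symbol, were followed among the 55450 gene rows of an RNA-sequencing table of 45 samples. All 9 had a row and passed the filter on low counts in every comparison. In comparisons with WT non-GC B cells, Cish passed it only through the other groups. The samples came from male and female S1PR4-/- mice (strain B6.129P2-S1pr4tm1Dgen/J, backcrossed to C57/BL6) and their WT littermates, between 8 and 12 weeks old, all given 50 µg OVA and 5 µg LPS as a 20 µL emulsion in IFA in the footpad. S1PR4 is a receptor for sphingosine-1-phosphate, and the deletion was present in every cell of the animal. CD4+ T cells were sorted from the draining popliteal lymph nodes on day 6 as TFH (PD1+ CXCR5+) or non-TFH (PD1- CXCR5-), and B220+ B cells on day 9 as GC B (GL7+ Fas+) or non-GC B (GL7- Fas-). By the study's methods the sorted cells came from 6 WT and 6 S1PR4-/- mice, and the labels do not tie samples to mice, so p-values measure the spread between samples. There were 6 samples in each of the 8 groups, except non-GC B cells with 5 WT and 4 S1PR4-/- samples. T cells and B cells were sorted on different days, so lineage and day cannot be told apart.

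A cytokine that binds its receptor activates JAK kinases, which phosphorylate STAT proteins, and the STATs then move to the nucleus. In lymph nodes STAT3 acts downstream of IL-6 and IL-21, STAT4 downstream of IL-12, STAT5A and STAT5B downstream of IL-2 and IL-7, STAT6 downstream of IL-4, and STAT2 downstream of type I interferons. SOCS1, SOCS3 and CIS bind activated receptors or JAKs and dampen the signal. Transcript levels do not measure phosphorylation, so none of the values below is a measure of STAT activity.

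The genes lie on 5 chromosomes of mm10 in the GENCODE M21 annotation. Stat3 (chr11:100885098-100939540), Stat5a (chr11:100859351-100885169) and Stat5b (chr11:100780731-100850724) are neighbours, and Stat3 and Stat5a, which are on opposite strands, overlap at their ends. The strand setting of the quantification is not given in the sources used here. Stat2 (chr10:128270559-128292849) and Stat6 (chr10:127642986-127660957) share another chromosome. Stat4 is at chr1:51987148-52107189, Socs1 at chr16:10782240-10785536, Socs3 at chr11:117966079-117970047 and Cish at chr9:107296026-107302784. Of the 31-base words in the Stat5a transcripts 11.7% also occur in transcripts of other genes, mostly Stat5b, and of those of Stat5b 15.2% do, mostly Stat5a. Some reads of this pair may thus have been divided between them by the quantification, which was not examined. For Stat4 the share of such words was 23.7%, mostly with Gm28177, an annotated gene model, while Socs1, Socs3 and Stat6 shared none.

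Start regions of Socs1, Socs3, Cish, Stat2 and Stat4 are shown because they held a searched motif. The windows of Stat3, Stat5a, Stat5b and Stat6 held none. RefSeq start sites on GRCm38.p6 gave 12 windows of 300 bases for the 9 genes, each from 250 bases before to 50 bases after a start. These were searched on both strands for TTCNNNGAA, the palindrome that STAT dimers bind, and for GAAANNGAAA, an interferon response type repeat. TTCNNNGAA was in 2 of the 12 windows, against 8.3% of all 32851 windows in the table, and GAAANNGAAA was in 3 of 12, against 3.44%. Cish held a pair of TTCNNNGAA matches that began at its start site, Socs3 held a single match upstream, and Socs1 held overlapping copies of GAAANNGAAA. A match is only a description of the letters. The 30 bases around each match run 5′ to 3′ on the strand of the gene, with the motif letters in capitals:
Cish, chr9:107296654-107296683, plus strand: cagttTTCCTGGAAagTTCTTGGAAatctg
Socs3, chr11:117969502-117969531, minus strand: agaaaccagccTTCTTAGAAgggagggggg
Socs1, chr16:10785597-10785626, minus strand: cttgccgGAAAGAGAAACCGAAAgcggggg
Stat2, chr10:128270266-128270295, plus strand: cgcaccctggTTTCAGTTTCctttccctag
Stat4, chr1:52008133-52008162, plus strand: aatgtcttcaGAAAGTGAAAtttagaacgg
The Stat4 window belongs to the downstream one of its 2 RefSeq start sites. The Cish start site of RefSeq and the Socs3 start site both lie inside the M21 gene bounds given above.

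Total expected counts per sample were between 26299429 and 45548215, with a median of 34188292. S1pr4 itself was at 0 to 1.02 CPM (counts scaled to the size of each library) in the S1PR4-/- samples and at 17.1 to 164 CPM in the WT samples, without overlap. Cd3e stayed under 1 CPM in B cells, while Cd4 reached 7.84 CPM in WT non-GC B cells. The 12 T cell markers summed to 213 to 353 CPM in B cells and 7553 to 9854 CPM in T cells. WT TFH samples carried some B cell transcript, with 12 B cell markers summing to 184 to 507 CPM against 164 to 294 CPM in S1PR4-/- TFH, 63.9 to 111 CPM in non-TFH and 7208 to 16636 CPM in B cells. Of the 6 T cell samples per group, 5 WT and 2 S1PR4-/- were female by Xist and Ddx3y counts, so sex moved in part with genotype in T cells. In the B cells both sexes were about equally present in each genotype. In sorted bulk samples, fewer cells of a type and less RNA per cell cannot be told apart.

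**Figure D1:**
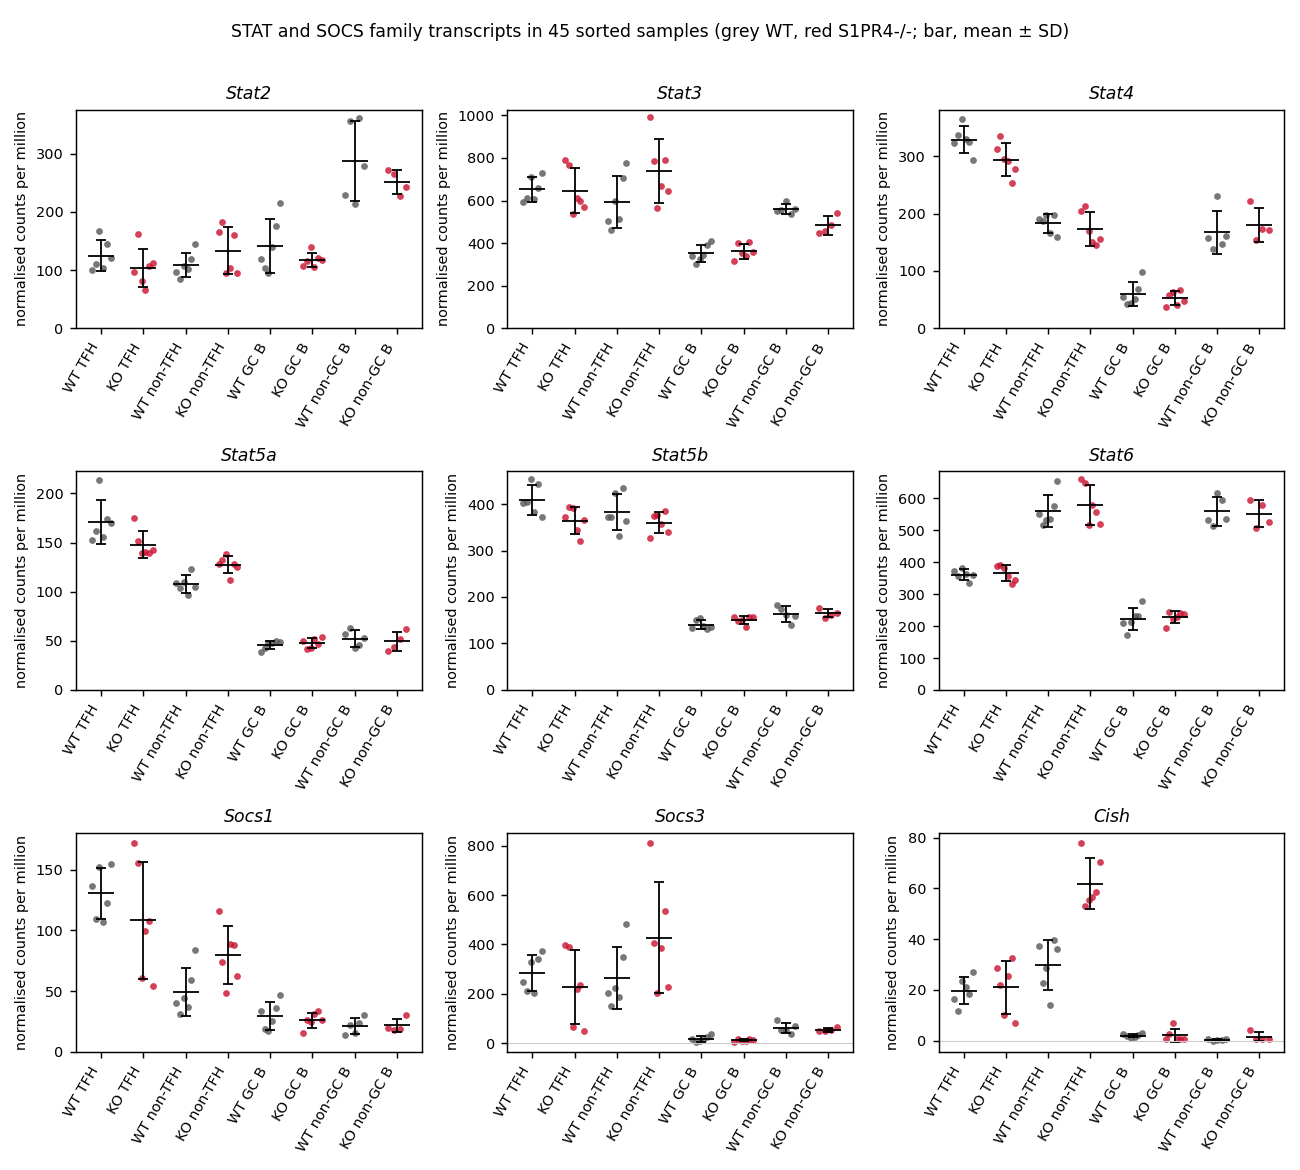
Normalised CPM of the 9 transcripts (y axes, linear from 0) in each of the 45 samples, by group (x axes; grey points WT, red points S1PR4-/-, written KO on the axis; bars show mean ± SD). Stat5a, Stat5b and Cish separate the T cell groups from the B cell groups, Stat6 is lower in both germinal center populations, and Stat4 is highest in TFH and lowest in GC B cells.

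The first comparison asked how the 9 transcripts differed between TFH cells, the CD4+ T cells that help B cells, and their non-TFH counterparts. In WT mice Socs1, Stat4 and Stat5a were higher in TFH and Stat6 and Cish were lower, while Stat2, Stat3, Stat5b and Socs3 did not pass the test (edgeR's quasi-likelihood test, FDR under 0.05 over all 13481 genes tested). This is 5 of 9, where 68.7% of all genes were called. The share of these genes that changed is therefore not above that of the transcriptome.

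Stat4, which relays IL-12, was at 294, 328 and 365 CPM (lowest, median and highest of 6) in WT TFH and at 159, 189 and 198 CPM in WT non-TFH. The groups did not overlap. The log2 fold change was 0.85 (SE 0.07, FDR 5.48e-08), or 1.80-fold. Among the S1PR4-/- samples TFH had 253, 293 and 336 CPM and non-TFH 145, 163 and 214 CPM, again without overlap, for a log2 fold change of 0.78 (SE 0.10, FDR 8.36e-06).

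Stat6, which relays IL-4, went the other way. WT TFH had 335, 360 and 382 CPM and WT non-TFH 515, 543 and 653 CPM. The log2 fold change was -0.63 (SE 0.06, FDR 2.83e-07), and every TFH sample was below every non-TFH sample. It was -0.65 (SE 0.07, FDR 1.47e-06) in S1PR4-/- mice, where TFH had 332, 369 and 392 CPM and non-TFH 518, 567.5 and 660 CPM.

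Stat5a, one of the paired IL-2 and IL-7 factors, was at 152, 166 and 214 CPM in WT TFH and 97.1, 107 and 123 CPM in WT non-TFH. These groups did not overlap, with a log2 fold change of 0.67 (SE 0.08, FDR 4.39e-06). In S1PR4-/- mice the log2 fold change was 0.23 (SE 0.07, FDR 0.00666), with 139, 141 and 175 CPM against 112, 128 and 139 CPM, the lowest TFH sample being just above the highest non-TFH sample. That call was lost when total counts replaced TMM (0.15, SE 0.07, FDR 0.0542). Stat5b, its close relative, showed log2 differences of 0.10 (SE 0.07) in WT and 0.03 (SE 0.06) in S1PR4-/- mice, and neither passed the test.

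Among the inhibitors, Socs1, which acts on JAKs directly, was at 107, 129 and 155 CPM in WT TFH and at 30.96, 42.2 and 84.0 CPM in WT non-TFH. All 6 TFH samples were above the non-TFH samples, and the log2 fold change was 1.40 (SE 0.20, FDR 2.21e-05), or 2.65-fold. For S1PR4-/- mice the groups overlapped, at 54.4, 103 and 172 CPM in TFH and 48.4, 81.0 and 116 CPM in non-TFH, and the log2 difference was 0.46 (SE 0.28, FDR 0.153). It was called in the same direction with the replicate number as a block (FDR 0.0324). The difference between genotypes in this shift, -0.97 (SE 0.37, FDR 0.415), did not pass its own test.

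Cish, which encodes CIS, was at 11.7, 19.7 and 26.99 CPM in WT TFH and 14.1, 32.4 and 39.5 CPM in WT non-TFH. The groups overlapped, and the log2 fold change of -0.60 (SE 0.24, FDR 0.0363) was lost with the B cell marker score as a covariate (-0.36, SE 0.35, FDR 0.422). It was also lost without TFH replicate 1, 2 or 5 or non-TFH replicate 1, 3, 5 or 6 (FDR 0.0506 to 0.086). Without S1PR4 Cish was at 6.98, 23.5 and 32.7 CPM in TFH and 52.9, 57.4 and 77.8 CPM in non-TFH. There every TFH sample was below every non-TFH sample, for a log2 fold change of -1.54 (SE 0.30, FDR 0.000357).

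Socs3, the inhibitor best known on the IL-6 receptor, spread widely within the T cell groups. It was at 202, 288 and 374 CPM in WT TFH and 152, 212 and 481 CPM in WT non-TFH, and the log2 difference of 0.10 had an SE of 0.25. Among the S1PR4-/- samples it was at 48.2, 228 and 399 CPM in TFH and 203, 396 and 811 CPM in non-TFH. That log2 difference, -0.90 (SE 0.48, FDR 0.11), did not pass the test, but was called with all 8 groups in one fit (-0.92, SE 0.41, FDR 0.0497) and with the replicate number as a block (-1.14, SE 0.23, FDR 0.00169).

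In S1PR4-/- mice the count was 4 of 9 (Stat4 and Stat5a higher, Stat6 and Cish lower), against 70.7% of all 13390 genes tested, 36.1% higher and 34.6% lower. With the replicate number as a block it was 8 of 9, with Stat2 (-0.35, SE 0.12, FDR 0.0298), Stat3 (-0.18, SE 0.06, FDR 0.025), Socs1 (0.38, SE 0.14, FDR 0.0324) and Socs3 added. With a fold change over 1.5 required as well, it was 5 of 9 in WT, against 43.2% of all genes, and 3 of 9 in S1PR4-/- mice, against 43.4%. The 2 comparisons use separate samples. Members whose groups did not overlap numbered 4 in each genotype, where this held for 42% of 16200 genes in WT and 41.7% in S1PR4-/- mice.

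**Figure D2:**
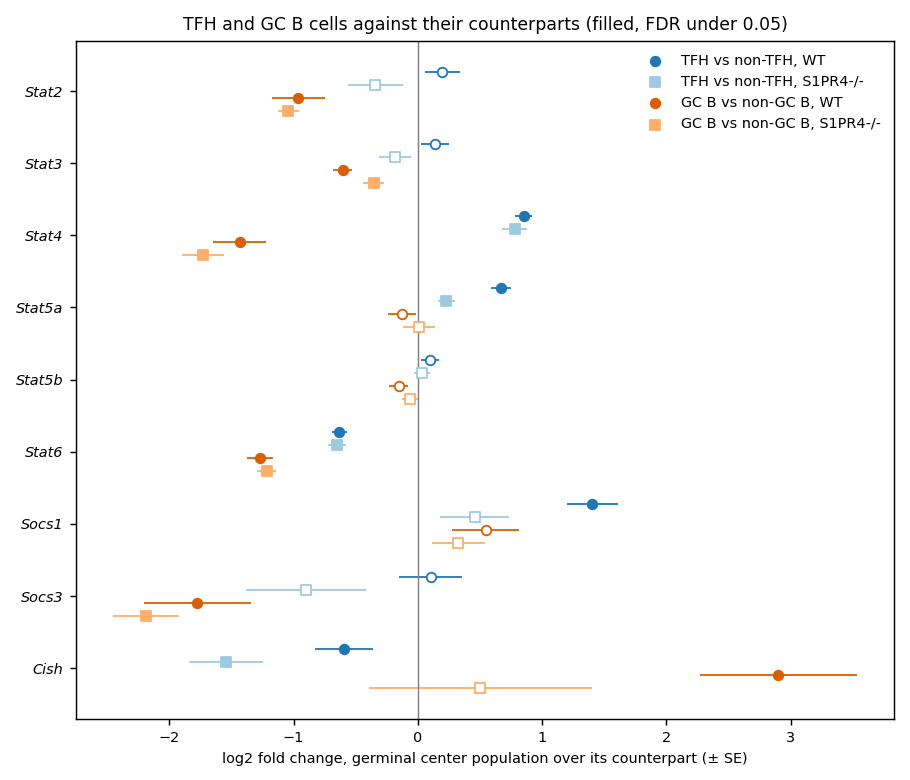
Log2 fold change of each transcript (x axis, ± SE) for TFH over non-TFH and GC B over non-GC B in WT (circles) and S1PR4-/- mice (squares), with filled marks at an FDR under 0.05. Stat4 lies at 0.85 and 0.78 in T cells and at -1.43 and -1.73 in B cells, and Stat6 is negative in all 4 comparisons.

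The same question was asked of GC B cells, which proliferate and mutate their antibody genes, against non-GC B cells. In WT mice Stat2, Stat3, Stat4, Stat6 and Socs3 were lower in GC B cells and Cish was higher at very low levels. This is 6 of 9, where 67.2% of 13324 genes were called (34.3% higher and 32.9% lower), and all 6 exceeded 1.5-fold, against 47.8% of genes. Cish, 1 of these 6, passed the low-count filter only through the GC B samples, so its call adds no weight to these counts. In S1PR4-/- mice the 5 lower transcripts were called again and Cish was not, 5 of 9 against 64.6% of 13484 genes, 33.6% higher and 31% lower. Of these 5, 4 exceeded 1.5-fold, against 48.2% of genes, with Stat3 below it. Groups did not overlap for 4 of 9 in WT, against 43.1% of 16200 genes, and for 5 of 9 in S1PR4-/- mice, against 45.5%.

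Stat4 was at 41.5, 52.5 and 98.1 CPM in WT GC B cells. In the 5 WT non-GC B samples it was at 138, 147, 158, 161 and 231 CPM. The groups did not overlap, and the log2 fold change was -1.43 (SE 0.21, FDR 6.19e-05). Without S1PR4 it was at 37.1, 52.9 and 67.1 CPM in GC B cells and 154, 171, 173 and 223 CPM in the 4 non-GC B samples, for -1.73 (SE 0.17, FDR 4.65e-06).

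Stat6 was at 171, 221 and 277 CPM in WT GC B cells and at 515, 531, 535, 596 and 618 CPM in WT non-GC B cells. This was a log2 fold change of -1.27 (SE 0.10, FDR 3.71e-07) without overlap, or 0.415 times the non-GC B level. For S1PR4-/- mice GC B cells had 194, 234 and 244 CPM and the non-GC B samples 507, 527, 580 and 595 CPM, for -1.22 (SE 0.08, FDR 2.02e-07).

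Stat3, the IL-6 and IL-21 factor, was at 304, 340 and 408 CPM in WT GC B cells and at 535, 548, 555, 558 and 598 CPM in WT non-GC B cells. The groups were separate, with a log2 fold change of -0.61 (SE 0.08, FDR 1.95e-05). Without S1PR4 it was -0.36 (SE 0.09, FDR 0.00386), with 313, 356 and 406 CPM against 446, 458, 484 and 543 CPM.

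Stat2, the interferon factor, was at 94.2, 130 and 215 CPM in WT GC B cells and 214, 228, 278, 357 and 361 CPM in WT non-GC B cells. The highest GC B sample was just above the lowest non-GC B sample, and the log2 fold change was -0.96 (SE 0.21, FDR 0.00142). In S1PR4-/- mice it was -1.04 (SE 0.08, FDR 1.12e-06) without overlap, at 104, 116 and 139 CPM against 227, 243, 265 and 272 CPM.

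Socs3 was at 5.62, 14.1 and 38.4 CPM in WT GC B cells and 37.6, 51.3, 53.5, 69.8 and 91.7 CPM in WT non-GC B cells. One GC B sample reached into the non-GC B range, and the log2 fold change was -1.77 (SE 0.43, FDR 0.00267). Among the S1PR4-/- samples the groups were apart, at 5.28, 10.4 and 17.5 CPM against 48.7, 49.9, 51.8 and 66.9 CPM, for -2.19 (SE 0.26, FDR 2.40e-05).

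Cish was near the detection limit in B cells. It was at 0.909, 1.94 and 2.80 CPM in WT GC B cells, from 30 to 96 expected counts a sample, and the 5 WT non-GC B samples held 0, 5, 7, 14 and 16 expected counts. The fitted log2 fold change of 2.90 (SE 0.63, FDR 0.0013) rests on these few reads. For S1PR4-/- mice the log2 difference was 0.50 (SE 0.90, FDR 0.641), and 1 sample led each group, at 6.94 CPM in GC B cells (next 2.74) and 4.06 CPM in non-GC B cells (next 0.694).

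Stat5a, Stat5b and Socs1 did not pass the test in B cells. Stat5a was at 38.2 to 63.6 CPM over the 11 WT B cell samples, with a log2 difference of -0.13 (SE 0.11), and at 40.1 to 62.1 CPM over the 10 S1PR4-/- samples, with 0.01 (SE 0.13). Stat5b had log2 differences of -0.16 (SE 0.08, FDR 0.0957) in WT and -0.06 (SE 0.06, FDR 0.401) in S1PR4-/- mice. Socs1 had 0.54 (SE 0.27, FDR 0.0918) and 0.33 (SE 0.21, FDR 0.2).

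Whether the germinal center shift differed between lineages was tested as an interaction in WT samples, the B cell difference minus the T cell difference. All 9 transcripts were called, where 41.7% of 15101 genes were, and 8 of 9 exceeded 1.5-fold, against 29%. The term was negative for 8 of them and positive for 1, against 21.4% and 20.3% of genes called in those directions, with a median of -0.86 over the 9 against -0.03 over all genes tested. Stat4, up in TFH and down in GC B cells, had the most negative value, -2.34 (SE 0.23, FDR 3.05e-08). Socs3 followed with -1.93 (SE 0.53, FDR 0.0048) and Stat2 with -1.22 (SE 0.28, FDR 0.00103). Stat6 was down in both lineages, and more so in B cells, by -0.70 (SE 0.12, FDR 7.78e-05). Socs1 had -0.92 (SE 0.36, FDR 0.0436) and lost its call without WT non-GC B replicate 2, 4 or 5, where its FDR was between 0.0635 and 0.101. Cish had 3.45 (SE 0.56, FDR 3.36e-05), which rests on its low counts in B cells.

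The T cell and B cell populations were then set against each other in WT mice. TFH had more than GC B cells for 8 of the 9, all but Stat2, against 35.4% of 13719 genes called higher in TFH and 67.8% called in either direction. Socs3 differed most, with a log2 fold change of 4.05 (SE 0.43, FDR 1.58e-06), followed by Cish with 3.34 (SE 0.28) and Stat4 with 2.46 (SE 0.19). Socs1 was 2.13 (SE 0.23) higher on this scale, Stat5a 1.90 (SE 0.09), Stat5b 1.54 (SE 0.07), Stat3 0.88 (SE 0.09) and Stat6 0.69 (SE 0.09), all at an FDR of 1.46e-05 or lower. Stat2, at -0.19 (SE 0.20, FDR 0.418), did not pass the test. The same 8 had no overlap between the groups, against 43.5% of 16200 genes.

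The populations outside the germinal center were compared in the same way. Non-TFH exceeded non-GC B cells in Cish, Socs3, Socs1, Stat5a and Stat5b, 5 of 9 against 29.2% of 13669 genes, and Stat2 was lower, 1 of 9 against 28.1% (57.3% in either direction), by -1.46 (SE 0.16, FDR 3.28e-06). Cish was at 29.7 ± 9.87 CPM (SD, n = 6) in WT non-TFH and 0.268 ± 0.218 CPM (SD, n = 5) in WT non-GC B cells. Socs3 differed by 2.06 (SE 0.31, FDR 6.50e-05), Stat5b by 1.17 (SE 0.09), Socs1 by 1.16 (SE 0.26) and Stat5a by 0.98 (SE 0.10) on the log2 scale. Stat3, Stat4 and Stat6 had log2 differences of 0.02 (SE 0.12), 0.07 (SE 0.12) and -0.06 (SE 0.08) and did not pass the test. Groups were apart for 6 of 9, against 37.8% of 16200 genes. This comparison and the others in WT share groups, so they are not independent of each other.

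By mean level, the T cell groups took the top 4 places of the 8 groups for Stat3, Stat5a, Stat5b, Socs1, Socs3 and Cish. For Stat5a, Stat5b and Cish the lowest T cell group did not overlap the highest B cell group. Neighbouring groups in these orders mostly overlapped. For Stat4 the order ran from TFH of both genotypes, to non-TFH and non-GC B cells, which overlapped, to GC B cells, with a gap on each side of the middle groups. For Stat6 it ran from non-TFH and non-GC B cells, which overlapped, to TFH and then to GC B cells, again with gaps. Stat2 was highest in non-GC B cells. The WT samples had a mean of 288 ± 69.3 CPM (SD, n = 5). For the S1PR4-/- samples it was 252 ± 20.5 CPM (SD, n = 4), and neighbours among the other 6 groups overlapped. Exon length was taken as the merged length of all annotated exons of a gene, which can exceed that of a single transcript. Divided by this length, WT TFH had the mean levels 98.3 CPM per kb for Socs3, 85.0 for Stat4, 82.0 for Stat6, 73.9 for Stat5b, 68.4 for Stat3, 44.8 for Socs1, 24.0 for Stat5a, 21.05 for Stat2 and 3.06 for Cish. In WT GC B cells Stat6 led with 50.4 CPM per kb, ahead of Stat3 with 36.9 and Stat5b with 25.3, and Socs3 was at 5.90. Without division by length Stat3 was ahead of Stat6 there, with means of 351 and 222 CPM, so this order depends on the lengths used.

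**Figure D3:**
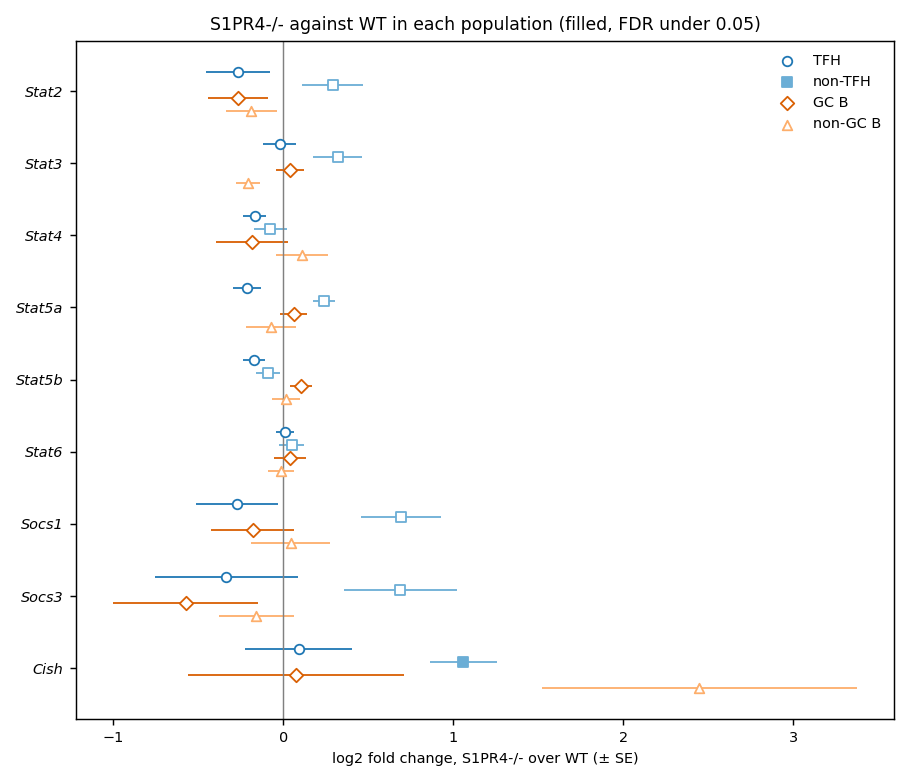
Log2 fold change of each transcript (x axis, ± SE) for S1PR4-/- over WT in TFH (circles), non-TFH (squares), GC B (diamonds) and non-GC B cells (triangles), with filled marks at an FDR under 0.05. Cish in non-TFH, at 1.06, is the single filled mark, and the long bars of Cish in the B cells show its low counts there.

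The genotype comparisons asked what differed without S1PR4 in each sorted population. In non-TFH cells Cish was higher in S1PR4-/- mice, with 52.9, 57.4 and 77.8 CPM (lowest, median and highest of 6) against 14.1, 32.4 and 39.5 CPM in WT. All 6 S1PR4-/- samples were above all 6 WT samples, which held for 0.327% of 16200 genes, while 1.01% had no overlap in either direction. The log2 fold change was 1.06 (SE 0.20, FDR 0.0381), or 2.08-fold. Cish was 1 of 9 called, where 0.235% of 13197 genes were, 0.0758% higher in S1PR4-/- cells. Among the 4 comparisons of genotypes it was the single call over the 9 transcripts.

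This call was close to the threshold. It was lost with sex as a term (1.02, SE 0.24, FDR 0.299), with all 8 groups in one fit (1.06, SE 0.46, FDR 0.477) and without any 1 of the 6 S1PR4-/- samples or WT replicate 2 or 3 (FDR 0.0521 to 0.107), while DESeq2 (FDR 1.47e-05) and limma voom (FDR 0.0272) called it. Within sexes, the 5 WT females had 14.1 to 39.5 CPM and the 2 S1PR4-/- females 56.4 and 58.4 CPM, and the 1 WT male had 28.8 CPM and the 4 S1PR4-/- males 52.9 to 77.8 CPM. A group of 1 WT male gives no spread of its own.

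The other transcripts of the S1PR4-/- non-TFH cells missed the threshold. At an unadjusted p under 0.05 there were 4 of the 9, Cish included, against 11.3% of all genes. Socs1 had a log2 difference of 0.69 (SE 0.23, FDR 0.264), Stat3 0.32 (SE 0.14, FDR 0.42) and Stat5a 0.24 (SE 0.06, FDR 0.152). Stat5a was called by DESeq2 (FDR 0.0323), which made 2 calls over the 9. Socs3 had 0.69 (SE 0.33, FDR 0.456), with S1PR4-/- replicate 1 at 811 CPM.

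In TFH cells none of the 9 was called between genotypes by edgeR, DESeq2 or limma voom, where edgeR called 1.41% of 13495 genes, and for none were the groups without overlap, against 1.6% of 16200 genes. At an unadjusted p under 0.05 there were 3 of 9, each lower in S1PR4-/- cells, against 19.2% of all genes. These were Stat5a with -0.22 (SE 0.08, FDR 0.177), Stat5b with -0.17 (SE 0.07, FDR 0.164) and Stat4 with -0.17 (SE 0.07, FDR 0.197) on the log2 scale. With sex as a term all 3 were called, at -0.33 (SE 0.07, FDR 0.0269), -0.27 (SE 0.06, FDR 0.0206) and -0.26 (SE 0.07, FDR 0.0409). The 12 B cell markers had a median log2 difference of -2.29 in this comparison, and with their score as a covariate none of the 9 was called, with Stat5a at -0.27 (SE 0.12, FDR 0.439), Stat5b at -0.11 (SE 0.09, FDR 0.745) and Stat4 at -0.15 (SE 0.10, FDR 0.668). Cish, higher in the S1PR4-/- non-TFH cells, had 0.09 (SE 0.32, FDR 0.911) in TFH.

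The T cell populations differed in the sign of their genotype effect for Stat5a, which was -0.22 in TFH and 0.24 in non-TFH. The interaction was -0.46 (SE 0.11, FDR 0.129) and missed the threshold with edgeR. DESeq2 called it, at -0.44 (SE 0.11, FDR 0.0242). The corresponding term for Cish was -0.97 (SE 0.41, FDR 0.47). With edgeR 0 of the 9 interactions were called, 3 had an unadjusted p under 0.05 (9.2% of all genes did), limma voom called 0, and edgeR called 0.0139% of all 14401 genes.

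In B cells loss of S1PR4 changed none of the 9 transcripts past the threshold. At an unadjusted p under 0.05 there was none in GC B cells, against 4.13% of genes, and 0.0612% of 13070 genes were called. The groups overlapped there for all 9, and were apart for 0.191% of 16200 genes. The log2 differences in GC B cells ran from -0.57 (SE 0.43) for Socs3 to 0.11 (SE 0.06) for Stat5b. Among non-GC B cells 2 passed that level, against 4.55% of genes, Stat3 with -0.21 (SE 0.07, FDR 0.981) and Cish with 2.45 (SE 0.93, FDR 0.981), and 0.0537% of 13038 genes were called. DESeq2 and limma voom called 0 of 9 in both populations. The Cish values in the 4 S1PR4-/- non-GC B samples were 0.502, 0.646, 0.694 and 4.06 CPM. All were above the WT samples, but the highest of these had 0.498 CPM, so the gap is very small and near the detection limit. Cish also passed the filter in this comparison only through the S1PR4-/- samples. The 1 of 9 without overlap compares with 1.56% of genes in either direction and 0.796% in this one. In the B cell interaction edgeR, DESeq2 and limma voom each called 0 of 9, with 2 at an unadjusted p under 0.05 (4.58% of genes) and 0% of 14490 genes called.

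**Figure D4:**
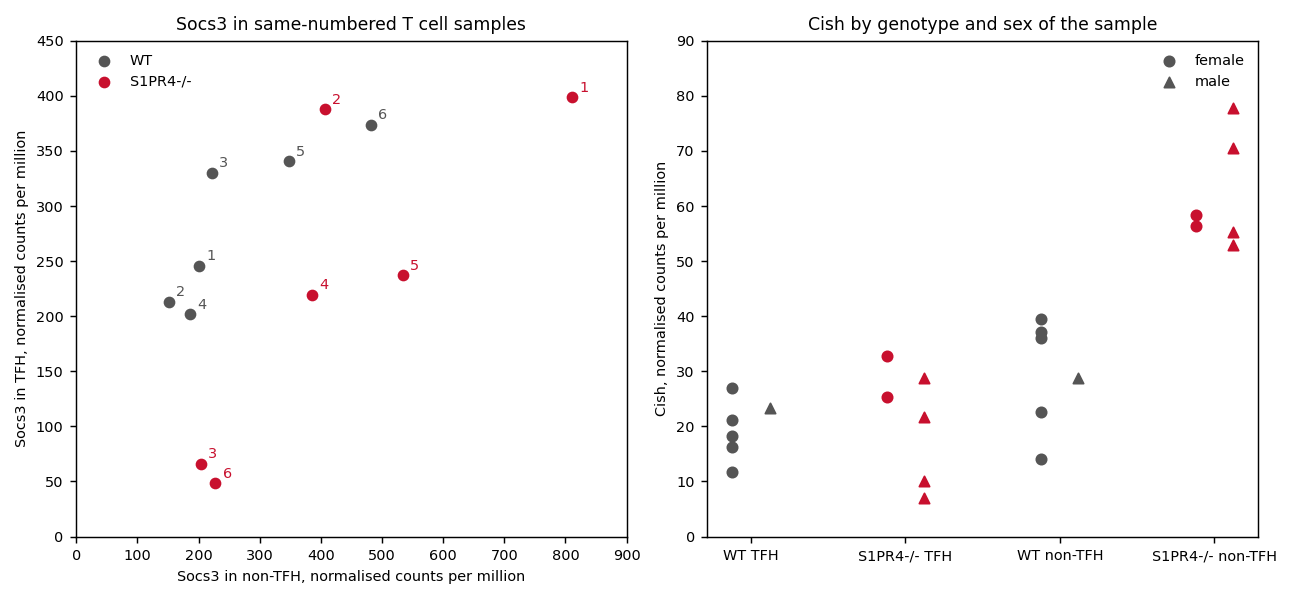
Left, Socs3 in TFH (y axis) against non-TFH (x axis) samples with the same replicate number, in normalised CPM, grey for WT and red for S1PR4-/- with the number beside each point. Right, Cish in the T cell groups by sex (circles female, triangles male), where the S1PR4-/- non-TFH samples of both sexes are above all WT samples.

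In non-TFH cells of both genotypes Socs3 varied from sample to sample together with Socs1 and with Stat3, while in WT TFH neither relation passed the adjusted test. Socs3 is a known target of STAT3. In WT non-TFH cells Pearson's r of the log2 levels of Socs3 and Socs1 was 0.996 (exact permutation p = 0.00278, adjusted 0.0153, n = 6) and Spearman's rho was 1 (exact permutation p = 0.00278, adjusted 0.0153). Without the 2 samples farthest from the median r was 0.999. For Socs3 and Stat3 in the same cells r was 0.976 (exact permutation p = 0.00556, adjusted 0.0153, n = 6) and rho 0.943 (exact permutation p = 0.0167, adjusted 0.0458), with r = 0.893 after leaving out those 2.

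In S1PR4-/- non-TFH cells r was 0.949 for Socs3 and Stat3 (exact permutation p = 0.00278, adjusted 0.0153, n = 6) with a rho of 1 (exact permutation p = 0.00278, adjusted 0.0153) and 0.809 without the 2 farthest samples. For Socs3 and Socs1 it was 0.948 (exact permutation p = 0.0111, adjusted 0.0244, n = 6), with a rho of 0.829 (exact permutation p = 0.0583, adjusted 0.0917) and 0.853 without those samples. In WT TFH cells Socs3 with Stat3 gave r = 0.884 (exact permutation p = 0.05, adjusted 0.0786, n = 6) and rho 0.771 (exact permutation p = 0.103, adjusted 0.141), and 0.920 without the 2 farthest. Socs3 with Socs1 gave 0.799 there (exact permutation p = 0.106, adjusted 0.145, n = 6) and rho 0.829 (exact permutation p = 0.0583, adjusted 0.0917), and 0.287 without the 2 farthest, so this relation rests on those samples.

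Socs3 and Cish did not reach significance in any of the 3 groups, with r = 0.626 in WT TFH (exact permutation p = 0.189, adjusted 0.208, n = 6), 0.615 in WT non-TFH (exact permutation p = 0.133, adjusted 0.163, n = 6) and 0.366 in S1PR4-/- non-TFH (exact permutation p = 0.461, adjusted 0.461, n = 6). The rho values were 0.543, 0.657 and 0.429 (exact permutation p = 0.297, 0.175 and 0.419, adjusted 0.327, 0.214 and 0.419), and r was 0.802, 0.395 and -0.777 without the 2 farthest samples. No pooled correlation is given within S1PR4-/- TFH, because its samples fall apart, a choice made with the values seen. Its Socs3 values do enter the comparison of same-numbered samples below. The relations of Socs3 with the other transcripts were thus not tested within S1PR4-/- TFH. Replicates 3 and 6 had 66.1 and 48.2 CPM of Socs3, 60.5 and 54.4 CPM of Socs1 and 10.2 and 6.98 CPM of Cish. The other 4 samples had 219 to 399 CPM of Socs3, 99.1 to 172 CPM of Socs1 and 21.8 to 32.7 CPM of Cish. Replicates 3 and 6 were both male, as were 2 of the other 4.

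Levels of Socs3 in TFH and non-TFH samples of the same number were also compared. S1PR4-/- non-TFH replicates 3 and 6 were the lowest of their group in Socs3, at 203 and 228 CPM. Over the 6 same-numbered pairs in WT, Socs3 in TFH and non-TFH had r = 0.868 (exact permutation p = 0.00556, adjusted 0.0153, n = 6), rho 0.943 (exact permutation p = 0.0167, adjusted 0.0458) and r = 0.806 without the 2 farthest pairs. In S1PR4-/- mice r was 0.878 (exact permutation p = 0.0361, adjusted 0.0662, n = 6), rho 0.886 (exact permutation p = 0.0333, adjusted 0.0733) and r without the 2 farthest pairs 0.468, so there it rests on those samples. These were 11 relations, adjusted together, and all tests were two-sided. No relation was computed within a sex, since no T cell group held 6 samples of the same sex, the smallest number used here.

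Over all 45 samples, 12110 genes with a mean of at least 1 CPM were ranked by Pearson correlation of log2 CPM with each transcript, as a description, since most of it comes from differences between the populations. Socs3 had Tha1 (0.974), Pglyrp2 (0.957) and Tnfrsf18 (0.953) nearest, and Stat3 had Socs3 (0.940), Bcl3 (0.925) and Tha1 (0.914). Socs1 had Myd88 (0.960), Lgals7 (0.933) and Myl12a (0.931), and Cish had Cyb5a (0.945), Qprt (0.939) and Cd9 (0.938). Stat4 had Sla (0.973), S100a10 (0.966) and Gpr183 (0.964). Stat5a had Tnfsf8 (0.975) and Ccr8 (0.974) among its nearest, and Stat5b had Plcg1 (0.988), Lipa (0.982) and Trbv3 (0.981). Stat6 had Ripor2 (0.979), Acap1 (0.977) and Lemd2 (0.973). Stat2 had Samd9l (0.919), Trim30d (0.902) and Trim34a (0.898). Between the 9 transcripts themselves the values ran from 0.958 for Stat5a with Stat5b to -0.553 for Stat2 with Cish.

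The rest of the pathway was read from fixed lists. Of the JAK kinases, Jak2 (log2 fold change 0.90, SE 0.09), Jak3 (0.57, SE 0.16) and Tyk2 (0.33, SE 0.06) were higher in WT TFH than in non-TFH, and Jak1 (-0.74, SE 0.06) was lower, with 4 of 4 called against 68.7% of genes. In WT GC B cells Jak1 (-0.69, SE 0.11), Jak2 (-0.68, SE 0.16) and Jak3 (-0.59, SE 0.12) were lower than in non-GC B cells, 3 of 4 against 67.2%. Jak2 and Jak3 thus moved in opposite directions in the T and B lineages. Tyk2, at -0.17 (SE 0.09, FDR 0.117) in WT GC B cells, was not called there.

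Receptor chains fell more often than they rose. In WT TFH 4 of 16 were higher and 11 lower than in non-TFH, against 34.8% and 33.9% of genes. The IL-12 receptor chains Il12rb1 (2.32, SE 0.22) and Il12rb2 (3.10, SE 0.52, at 5.25 against 0.606 CPM) were higher, while Il7r (-4.60, SE 0.24) and Il4ra (-2.61, SE 0.08), the chain that STAT6 docks on, were lower. In WT GC B cells 2 of 15 tested chains were higher, Il12rb1 (1.87, SE 0.29) and Il2rb (1.77, SE 0.67), and 8 were lower (34.3% and 32.9% of genes), among them both IL-10 receptor chains, Il10rb (-1.99, SE 0.17) and Il10ra (-1.86, SE 0.28).

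Other inhibitors were mixed, to be read against 34.8% of all genes higher and 33.9% lower in TFH, and 34.3% and 32.9% in GC B cells. In WT TFH 3 of 15 were higher, led by the phosphatase genes Ptpn11 (1.17, SE 0.09) and Ptpn1 (1.03, SE 0.06) with Pias3 (0.76, SE 0.11), and 5 were lower, among them Pias1 (-0.92, SE 0.05). In WT GC B cells 2 of 15 were higher and 6 lower. Socs2 (3.92, SE 0.64) rose from 0.543 to 7.83 CPM, and Socs5 (-3.18, SE 0.31) fell from 36.9 to 3.91 CPM. Pias3 (-0.88, SE 0.12) and Sh2b3 (-0.71, SE 0.09) were also lower.

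Genes known as targets of the single STATs were read in the same way, against 34.8% of all genes higher and 33.9% lower in WT TFH. In WT TFH 7 of 8 STAT3 targets were higher and 1 lower, although Stat3 itself was not called. Il21 (7.18, SE 0.24), Maf (3.91, SE 0.33), Batf (2.00, SE 0.09) and Bcl6 (1.74, SE 0.10) led, all genes that also mark TFH cells. Of 6 STAT4 targets 4 were higher and 1 lower, with Hlx (4.73, SE 0.68, under 1 CPM), Il18rap (1.64, SE 0.27), Tbx21 (1.08, SE 0.39) and Furin (1.01, SE 0.12). Of 8 STAT5 targets 2 were higher and 5 lower, among them Bcl2 (-1.86, SE 0.13), Osm (-1.24, SE 0.12) and Ccnd2 (-1.003, SE 0.13), with Gzmb (0.91, SE 0.33) higher.

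Of 6 STAT6 targets 5 were higher and 1 lower in WT TFH, with Il4 (6.20, SE 0.37), Cd40 (3.18, SE 0.37) and Fcer2a (2.93, SE 0.95) higher and Il4ra lower. Cd40 and Fcer2a are also B cell genes, and 11 of the 12 B cell markers were higher in this comparison, where their part was not tested. Of 10 interferon targets 3 were higher, Mx1 (2.83, SE 0.34), Rsad2 (2.18, SE 0.39) and Isg15 (1.81, SE 0.29), and 2 were lower, one of them Ifi44 (-1.11, SE 0.41).

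In WT GC B cells, where 34.3% of all genes were higher and 32.9% lower, interferon targets were 0 higher and 6 lower of 10, as Stat2 was, with Ifit3 (-2.58, SE 0.76), Ifit1 (-2.26, SE 0.67), Rsad2 (-1.85, SE 0.71) and Irf9 (-1.48, SE 0.21). Their median log2 fold change was -1.46, against 0.00 over all genes tested. Of 4 STAT6 targets tested 1 was higher, Xbp1 (2.19, SE 0.27), which is also a plasma cell gene, and 3 were lower, Fcer2a (-1.72, SE 0.14), Il4ra (-1.13, SE 0.13) and Cd40 (-0.72, SE 0.11). The STAT3 targets split 4 to 3 of 7, with the plasma cell gene Prdm1 (3.88, SE 0.61) and Pim1 (2.31, SE 0.26) higher and Maf (-1.76, SE 0.53, under 1 CPM) and Bcl3 (-1.40, SE 0.22) lower. Of 8 plasma cell markers 7 were higher in the same comparison, and their part was not tested. The STAT5 targets split 4 to 2 of 8, with Pim1 and Bcl2l1 (1.78, SE 0.14) higher and Osm (-2.50, SE 0.30) and Bcl2 (-2.24, SE 0.30) lower. Of 4 STAT4 targets Tbx21 (2.37, SE 0.34) was higher and Hlx (-2.79, SE 0.36) and Furin (-0.39, SE 0.10) lower.

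Between genotypes the lists held few calls. Bcl2, a survival gene on the STAT5 list, was lower in S1PR4-/- TFH (-0.51, SE 0.12, FDR 0.0496), at 37.7 against 53.5 CPM. It was 1 of 8 on the list, against 1.41% of genes. The rest of the list had positive values in TFH, from 0.02 (SE 0.17) for Osm to 0.60 (SE 0.42) for Il2ra. None of these was called, and 49.4% of all genes had positive values. Lta, another gene of that list, was higher in S1PR4-/- non-TFH (0.55, SE 0.10, FDR 0.0381), at 31.2 against 21.3 CPM. Of the 8 genes of the list 1 was called there, against 0.235% of genes, 5 had an unadjusted p under 0.05, against 11.3%, and all 8 had positive values, as 51.2% of genes did. One of them, Il2ra, is also a regulatory T cell marker. The 4 markers of those cells summed to 302 to 531 CPM in S1PR4-/- non-TFH and 172 to 386 CPM in WT non-TFH. Their part was not tested. No other listed kinase, inhibitor, receptor chain or target was called in these populations or in B cells.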

How the data were processed

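The authors deposited a table of expected counts per gene, made from trimmed reads (cutadapt 2.10) aligned to mm10 with STAR 2.5.3 and quantified with RSEM 1.3.0. Their methods name GENCODE release M30, but the gene rows match release M21, which was used here for positions and exon lengths. Expected counts were rounded, filtered with filterByExpr, scaled by TMM and tested with edgeR 4.0.16 (quasi-likelihood, R 4.3.3) on the groups compared, with Benjamini-Hochberg adjustment over all genes tested. A gene was called at an FDR under 0.05, and separately with a fold change over 1.5. The SE is the log2 fold change divided by the root of F. Levels are CPM from 1 TMM scaling of 45 samples over 16200 genes, with a prior count of 2 on the log2 scale. DESeq2 1.42.0, limma 3.58.1 voom, other scalings, no filter, all groups in one fit, the replicate number, sex, the B cell marker score and leaving out samples were alternatives. Correlations used exact permutation (scipy 1.17.1). Scripts were tested on simulated data. The 9 genes were all named. In the other lists, those with the largest absolute log2 fold changes among called genes were named, up to 4 a list. Members and lists were chosen with earlier results of these data known. Sex was read from Xist and Ddx3y. Which samples had standard or low-input libraries is not given in the sources used here. Depth was 26299429 to 45548215 expected counts. A result that the naming rule would include is not reported here.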

Additional observations from a re-analysis of the deposited data

Results flagged for a closer look

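Single samples stood far from the rest of their group in 6 of the 72 combinations of transcript and group, by Dixon's ratio of gap to range, and chance flags about 1 in 20. Stat4 was at 231 CPM in WT non-GC B replicate 3, with the next sample at 161 CPM. Stat5a was at 214 CPM in WT TFH replicate 3 (next 174) and at 175 CPM in S1PR4-/- TFH replicate 1 (next 152). Socs1 was at 30.1 CPM in S1PR4-/- non-GC B replicate 4 (next 19.7). Cish was at 6.94 CPM in S1PR4-/- GC B replicate 3 (next 2.74) and at 4.06 CPM in S1PR4-/- non-GC B replicate 1 (next 0.694).

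The germinal center shift differed between B and T cells of WT mice for all 9 transcripts by the interaction test, where 41.7% of 15101 genes were called. The log2 differences, B minus T, were -2.34 for Stat4, -1.93 for Socs3, -1.22 for Stat2, -0.92 for Socs1, -0.86 for Stat5a, -0.81 for Stat3, -0.70 for Stat6, -0.32 for Stat5b and 3.45 for Cish. Socs1 lost its call when any of 3 WT non-GC B samples was left out (FDR 0.0635 to 0.101). The Cish value rests on its low counts in B cells.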

How the results depend on the processing

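Over 13 comparisons, 1746 fold changes of the 9 transcripts were recomputed, 873 of them with 1 sample left out. Of these, 1695 kept their side of the threshold without a marked move, 26 lost a call, 17 gained one and 8 moved. In 51 the sign changed, each for a value called in neither fit, and no called value changed sign. Counts of called transcripts that moved by more than 1.5 times are given first. For TFH against non-TFH in S1PR4-/- mice the replicate block gave 8 calls, against 4 without it. No label says what a replicate number marks, and the pairs did not all correlate above 0.1, so the main tests were left unpaired. The correlations of same-numbered samples ran from 0.0454 to 0.205 in WT T cells, 0.0866 to 0.163 in S1PR4-/- T cells, -0.00105 to 0.103 in WT B cells and -0.0452 to 0.0177 in S1PR4-/- B cells. Samples matched their own number best in 4 of 6, 6 of 6, 4 of 5 and 0 of 4 cases, and same-numbered TFH and non-TFH samples were of the same sex in 6 of 6 cases in each genotype, a hint from the data that they may share an animal. For S1PR4-/- against WT TFH, sex as a term gave 3 calls, against 0. For S1PR4-/- against WT non-TFH the single call became 2 with DESeq2, and 0 with all 8 groups in one fit or with sex as a term, and ran from 0 to 1 with samples left out. For the genotype by population term in T cells DESeq2 gave 1, against 0. Smaller moves were 3 with total counts in place of TMM (4 as reported) for TFH against non-TFH in S1PR4-/- mice, 4 to 5 for it in WT (5 as reported), 6 to 7 for GC B against non-GC B (6 as reported) and for non-TFH against non-GC B in WT (6 as reported), and 8 to 9 for the germinal center shift (9 as reported). Low counts limit Cish in B cells, where 0 to 191 expected counts were found per sample. The cause of these moves was not tested.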
